A study of Mus musculus with 4 samples.

Results

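The response to angiotensin II (AngII) was compared between smooth muscle cells and fibroblasts of the second heart field (SHF) lineage in the mouse aorta. Of 18069 cells kept from both SHF libraries, 12273 fell into 1 of the 2 classes, among 28540 kept cells in the whole series. Smooth muscle cells numbered 2090 at baseline and 4523 under AngII, and fibroblasts 3262 and 2398. A smooth muscle cell had at least 5 UMIs (unique molecular identifiers, each counting 1 captured transcript) of Myh11, the smooth muscle myosin heavy chain, and 0 of Pdgfra. A fibroblast had at least 1 UMI of Pdgfra, a growth factor receptor of fibroblasts, at least 5 of the proteoglycan gene Dcn and at most 2 of Myh11. Cells of both classes had 0 UMIs of the leukocyte gene Ptprc and of the endothelial gene Pecam1. For each gene, the log2 ratio of AngII over baseline in fibroblasts was subtracted from that in smooth muscle, and the result is called the class difference. It is positive where the ratio was higher in smooth muscle. A shift of a gene that is equal in both classes, such as one from a changed gene annotation, cancels in it but for the 1 CPM added to each level.

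The cells came from aortas of male mice of the strain Mef2c-mTmG, either untreated (baseline) or infused with AngII for 3 days, and were sorted by lineage before droplet capture. The labels do not give the number or age of the animals, the dose of AngII or whether animals were pooled. Each group was 1 library, so replicate error is unknown, no test was made and genes are described by size alone. In mice with the mTmG reporter, cells in which a Cre recombinase was active, and their descendants, carry a different fluorescent protein from all others. Both classes of a condition were captured in the same library. A second AngII library of the other lineage, labelled CNC, is set beside the results, and its own baseline was not analysed here.

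AngII acts through its type 1 receptor, which couples to calcium signalling and kinase cascades, makes smooth muscle contract and raises blood pressure. Smooth muscle cells of the medial layer carry the contractile load and lay down elastin and collagen, whereas fibroblasts lie mainly in the adventitia and maintain its collagen. Both cell types are known to respond to AngII infusion with matrix remodelling.

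Both classes carried the markers of their names, of which Myh11, Pdgfra and Dcn were used in the gate. The 8 smooth muscle markers summed to 61490 CPM (UMIs of a gene scaled to a fixed total of UMIs per class) in smooth muscle at baseline and 70680 under AngII, against 1541 and 4557 in fibroblasts. The 8 fibroblast markers summed to 28250 and 15210 CPM in fibroblasts, against 1317 and 1450 in smooth muscle. Markers of macrophages summed to at most 29.9 CPM, those of endothelium to at most 5.98 CPM and those of lymphocytes to at most 0.695 CPM in any class and library. Mesothelial markers summed to 4.45 and 21.3 CPM in fibroblasts, and pericyte markers to 298 and 192 CPM in fibroblasts and 300.4 and 382 CPM in smooth muscle, baseline first. Between the classes and their libraries the median depth per cell was 12427.5 and 13360 UMIs in smooth muscle and 9169 and 15510 in fibroblasts, baseline first. Mitochondrial UMIs had a median share of 7.34% and 5.41% in smooth muscle and 4.15% and 2.81% in fibroblasts. Of the kept cells, 37.6% at baseline and 27.1% under AngII were in neither class, and a Pecam1 UMI was found in 14.4% and 5.95%. At the Myh11 limit of the smooth muscle gate, 31 and 56 kept cells had 4 UMIs and 37 and 73 had 5. Many more failed the condition on Pdgfra. Of the kept cells, 1638 at baseline (19.1%) and 1320 under AngII (13.9%) met the Dcn and Myh11 limits of fibroblasts but had 0 Pdgfra UMIs. Another 536 and 552 cells with at least 5 Myh11 UMIs had a Pdgfra UMI. These counts do not require 0 UMIs of Ptprc and Pecam1, so some of these cells may have failed those conditions too. The libraries shared 29 barcodes, 14 of them in cells of the classes.

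Most genes had similar ratios in both classes. Over 4378 genes with a mean of at least 20 CPM in each class, the median absolute class difference was 0.22, against a median absolute log2 ratio of 0.32 in smooth muscle and 0.42 in fibroblasts. Ratios were above 0 for 45.3% of the genes in smooth muscle and 42.6% in fibroblasts. Across genes, Pearson's r between the ratios of the classes was 0.82, given as a description, since the genes share libraries and annotation. The class difference was at least 1 for 90 genes (2.06% of those compared), and at most -1 for 53 genes (1.21%). All 22 genes with log2 ratios beyond 3 in the same direction in both classes had a class difference under 1 in size, with a median of 0.20 and a largest of 0.86. Of all genes compared, only 3.27% were at 1 or more in size, so this count is near that share. The median class difference over all genes was 0.06. TMM scaling moved the median ratio of all genes from -0.06 to 0.17 in smooth muscle and from -0.11 to 0.16 in fibroblasts, whereas the median class difference was then 0.01, so ratios within a class are relative to total UMIs.

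**Figure D1:**
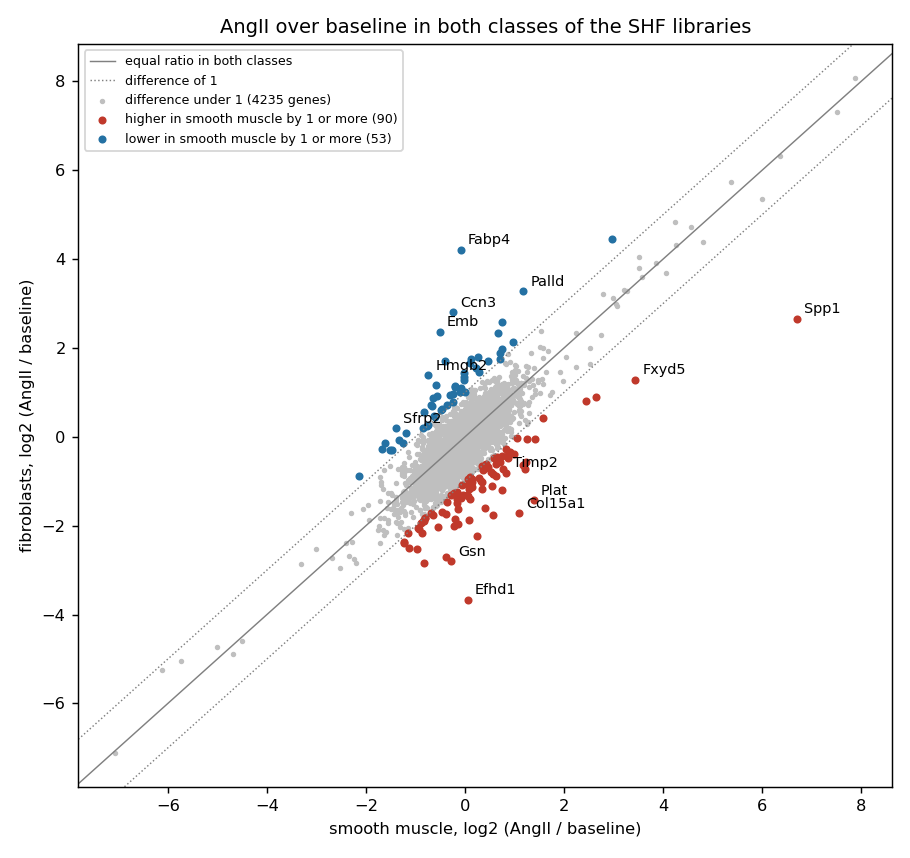
Log2 ratio of AngII over baseline in smooth muscle (x axis) against that in fibroblasts (y axis) for the 4378 genes compared, each point 1 gene. The 90 genes whose ratio was higher in smooth muscle by 1 or more lie below the lower dotted line and the 53 genes lower by 1 or more above the upper one.

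Most of the genes past this size had a large ratio in fibroblasts. Of the 90 genes on the smooth muscle side, 53 had a fibroblast log2 ratio of -1 or lower, 13 had a smooth muscle ratio of 1 or higher, and 2 of these, Plat and Col15a1, met both. Across all genes compared, fibroblast ratios of -1 or lower made up 8.22% and smooth muscle ratios of 1 or higher 2.63%. Of the 53 genes on the fibroblast side, 27 had a fibroblast ratio of 1 or higher (3.72% of all genes) and 9 a smooth muscle ratio of -1 or lower (3.33%), with none meeting both. Of all genes compared, 39.3% had the higher level in smooth muscle at baseline. On the smooth muscle side 13 of the 90 did, and of the other 77 genes, which were higher in fibroblasts at baseline, 43 had the higher level in smooth muscle under AngII. On the other side, 37 of the 53 were higher in smooth muscle at baseline and 19 of these were higher in fibroblasts under AngII. These counts describe genes chosen for their class difference, and a level that differs between classes at baseline is part of that difference.

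Spp1 encodes osteopontin, a secreted phosphoprotein of inflamed and calcifying tissue, and had the highest class difference of the genes that could be named. It stood at 0.366 CPM in smooth muscle at baseline, which is 10 UMIs in 10 cells, and at 141 CPM under AngII. In fibroblasts it stood at 39.9 and 257 CPM. The class difference was 4.04 with 1 CPM added to each level, and 5.90 without (95% counting interval 5.02 to 6.97). The transcript sat in few cells. Under AngII, 10 cells held 51.1% of the Spp1 UMIs of smooth muscle and 64.9% of those of fibroblasts, and 1 smooth muscle cell had 1871 UMIs. After every cell was thinned to 5000 UMIs, an Spp1 UMI was found in 0.147% of smooth muscle cells at baseline (95% exact binomial interval 0.0303 to 0.428%) and in 5.19% under AngII (4.56 to 5.89%). The shares in fibroblasts were 3.05% (2.42 to 3.78%) and 8.91% (7.77 to 10.2%). Without thinning they were 0.479% and 9.97% in smooth muscle and 4.17% and 13.9% in fibroblasts. The Spp1 level also moved with depth: smooth muscle cells under AngII with at least 16000 UMIs had 253 CPM and those with 8000 to 16000 had 12.4 CPM. Over cells with 8000 to 16000 UMIs the class difference of Spp1, with 1 CPM added, was -0.30, of the opposite sign. Smooth muscle there stood at 0.265 CPM (5 UMIs) at baseline and 12.4 CPM under AngII, against 17.2 and 236 CPM in fibroblasts. The baseline level lay below the added CPM, so the sign depends on that addition. In GENCODE M21 a neighbouring gene of the same strand shares exon sequence with Spp1, and its reads cannot be told apart.

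For 7 of the genes with the highest class differences, the level was lower under AngII in fibroblasts. On the log2 scale it was lower by more than the smooth muscle level differed in either direction. Plat, Col15a1 and Htra1, described further on, met this too. Efhd1, a mitochondrial calcium-binding protein, stood at 104 and 108 CPM in smooth muscle and at 55.8 and 3.48 CPM in fibroblasts, baseline first. Its class difference of 3.72 thus came from fibroblasts, in which 13.9% of the thinned cells had a UMI at baseline and 1.67% under AngII (15.3% and 4.55% without thinning). Of the few leukocytes in the same libraries, 0 of 7 and 1 of 10 had an Efhd1 UMI. Gsn, the actin-severing protein gelsolin, was among the strongest transcripts of baseline fibroblasts. It stood at 10250 CPM there and at 1474 CPM under AngII, against 648 and 531 CPM in smooth muscle (class difference 2.51). Sema3c, a secreted guidance cue, had 199 and 29.7 CPM in fibroblasts and 48.0 and 36.6 CPM in smooth muscle (2.33). The secreted Wnt inhibitors Wif1 and Dkk3 had class differences of 2.02 and 2.01. Wif1 was lower under AngII in both classes, at 131 and 73.7 CPM in smooth muscle and 104 and 13.5 CPM in fibroblasts, but 10 cells held 39.1% of its fibroblast UMIs at baseline. The share of thinned fibroblasts with a Wif1 UMI was 5.75% at baseline and 5.66% under AngII (6.28% and 14.0% without thinning). Rora, a nuclear receptor, stood at 156 and 41.7 CPM in fibroblasts and 107 and 114 CPM in smooth muscle (1.97), and Pamr1 at 63.9 and 12.8 CPM against 37.3 and 44.2 CPM (2.47). The smooth muscle log2 ratios of these 7 genes lay between -0.83 for Wif1 and 0.40 for Dkk3.

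In another set the ratios of the classes had opposite signs, above 0 in smooth muscle and below 0 in fibroblasts. Of the genes above, Efhd1, Pamr1, Dkk3 and Rora had such signs too. Plat, the tissue plasminogen activator, stood at 41.8 and 111 CPM in smooth muscle and at 231 and 85.4 CPM in fibroblasts, so the class with the higher level was not the same in the 2 libraries. Its class difference was 2.82, and 2.85 without the added CPM (counting interval 2.74 to 2.95). Col15a1, a collagen of the basement membrane zone, stood at 196 and 418 CPM in smooth muscle and 246 and 74.0 CPM in fibroblasts (2.81). Col15a1 UMIs were present in 55.8% and 76.4% of thinned smooth muscle cells and in 47.1% and 23.3% of thinned fibroblasts, and in 1 of 7 and 1 of 10 leukocytes. Htra1, a secreted serine protease, had 436 and 644 CPM in smooth muscle and 396 and 117 CPM in fibroblasts (2.31). Timp2, an inhibitor of matrix metalloproteinases, had 480 and 853 CPM against 2020 and 1156 CPM (1.63), which left the fibroblast level above that of smooth muscle. Cystm1 had the same opposed pattern, with a class difference of 1.93. Fxyd5, a regulator of the sodium pump, was higher under AngII in both classes but by unequal amounts, at 38.5 and 426 CPM in smooth muscle and 138 and 338 CPM in fibroblasts (2.15). Fxyd5 too shares exon sequence with a neighbour of the same strand.

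**Figure D2:**
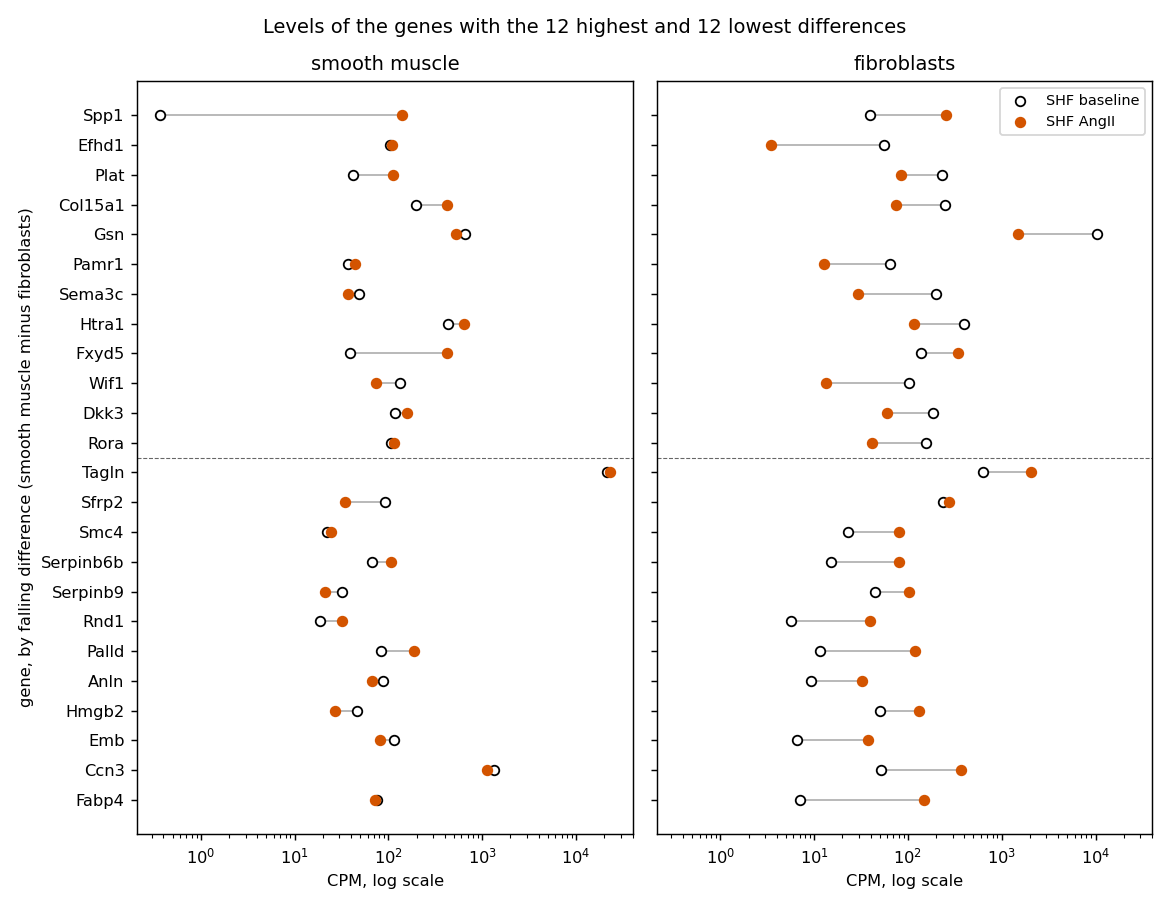
Level of each gene in CPM on a log axis in smooth muscle (left) and fibroblasts (right), with open points for SHF baseline and filled points for SHF AngII, 1 library each. Genes above the dashed line have the 12 highest class differences, mostly with the filled point left of the open one in fibroblasts, and those below it the 12 lowest, with the filled point to the right.

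The genes with the 3 lowest class differences, Fabp4, Ccn3 and Emb, were smooth muscle genes at baseline and stood higher in fibroblasts under AngII than before. Fabp4, a fatty acid binding protein best known from fat cells, stood at 75.6 and 71.1 CPM in smooth muscle and at 7.08 and 148 CPM in fibroblasts. Its class difference was -4.30, and -4.48 without the added CPM (counting interval -4.69 to -4.27). A Fabp4 UMI was found in 2.20% of thinned fibroblasts at baseline and 25.2% under AngII, while smooth muscle had 22.2% and 23.6%. The shares without thinning were 3.19% and 38.9% in fibroblasts. Among leukocytes of the same libraries, 1 of 7 and 3 of 10 cells had one at median depths of 7257 and 6050.5 UMIs. Under AngII, 10 cells held 16.8% of the Fabp4 UMIs of fibroblasts. Of 4 fat cell markers only Plin1 and Fabp4 itself were listed for both libraries. Plin1 stood at 0.392 CPM or lower in every class and library. Ccn3, a matricellular protein, stood at 1335 and 1136 CPM in smooth muscle and at 51.8 and 367 CPM in fibroblasts (-3.03). A Ccn3 UMI was present in 15.1% of thinned fibroblasts at baseline and in 50.3% under AngII (20.6% and 65.5% without thinning), and in 0 of 7 and 2 of 10 leukocytes. Emb, a cell surface glycoprotein, stood at 116 and 80.8 CPM in smooth muscle against 6.55 and 37.9 CPM in fibroblasts (-2.88).

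Several genes of the cytoskeleton and 2 serpins followed on the same side. Palld, an actin-bundling protein, was higher under AngII in both classes, at 82.5 and 187 CPM in smooth muscle and 11.4 and 119 CPM in fibroblasts (-2.10). Rnd1, a small GTPase, stood at 18.7 and 32.4 CPM against 5.68 and 39.1 CPM (-1.83), and Anln, an actin-binding protein of cell division, at 88.4 and 66.1 CPM against 9.24 and 32.3 CPM (-2.11). The serine protease inhibitors Serpinb9 and Serpinb6b had class differences of -1.76 and -1.66. Serpinb9 stood at 32.3 and 21.1 CPM in smooth muscle and 45.1 and 103 CPM in fibroblasts. Sfrp2, a secreted Wnt modulator, had 92.0 and 34.3 CPM in smooth muscle and 238 and 272 CPM in fibroblasts (-1.59), and here the smooth muscle ratio set the difference. Opposed ratios with the fibroblast ratio above 0 were also found for Tnnt2 (-1.41), Il1r1, an interleukin-1 receptor (-1.54), and Grb14, an adaptor of receptor tyrosine kinases (-1.37). Tnnt2, a troponin of heart muscle, stood at 753.5 and 466 CPM in smooth muscle and 39.3 and 65.4 CPM in fibroblasts.

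**Figure D3:**
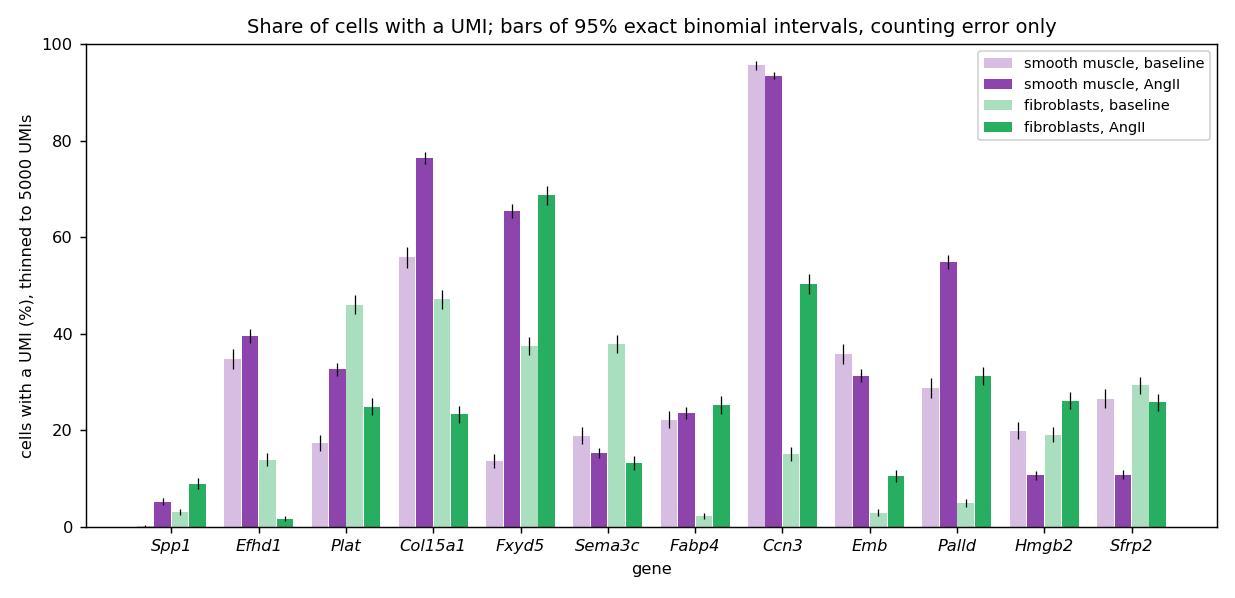
Share of cells with at least 1 UMI of each gene (y axis, percent) after every cell was thinned to 5000 UMIs, for both classes and libraries, with 95% exact binomial intervals that cover counting error only. Efhd1, Plat, Col15a1 and Sema3c show lower fibroblast bars under AngII than at baseline, and Fabp4, Ccn3, Emb and Palld show higher ones.

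Of 15 contractile genes compared, 3 had a positive class difference, against 58.0% of all genes, and 4 were at -1 or lower, against 1.21%. The median class difference was -0.51, and the median log2 ratios were 0.11 in smooth muscle and 0.64 in fibroblasts. In fibroblasts 4 genes had a ratio of 1 or higher (3.72% of all genes) and 1 of -1 or lower (8.22%), so the list did not move as a whole. Tagln, the actin-binding protein transgelin, stood at 21540 and 23250 CPM in smooth muscle and at 638 and 2027 CPM in fibroblasts (-1.56). Acta2, smooth muscle actin, stood at 29660 and 35770 CPM against 586.5 and 2047 CPM (-1.53), and tropomyosin Tpm2 (-1.33) and myosin light chain Myl6 (-1.17) followed. Other members were lower under AngII in fibroblasts, among them leiomodin Lmod1 at 43.5 and 36.2 CPM, smoothelin Smtn at 44.5 and 42.4 CPM and Ppp1r12b, a regulatory subunit of myosin phosphatase, at 42.0 and 20.4 CPM. The 5 members below the level needed for comparison were also divided in fibroblasts. The calponin Cnn1 stood at 6.71 and 15.6 CPM, the actin Actg2 at 0.864 and 10.0 CPM and desmin, Des, at 5.71 and 7.84 CPM. By contrast, the myosin light chain kinase Mylk stood at 15.1 and 13.3 CPM and Synpo2 at 12.8 and 4.70 CPM. TMM factors of fibroblasts were 1.19 at baseline and 0.991 under AngII, so the small differences of Lmod1, Smtn and Mylk depend on the scaling. Under TMM scaling the fibroblast median of the list was 0.90, with 5 genes at 1 or higher. Smooth muscle made up 24.4% of the kept cells of the baseline library and 47.7% of the AngII library, and the summed smooth muscle markers in fibroblasts were 1541 and 4557 CPM. Among cells with at least 2 Ptprc UMIs and none of Myh11 and Pdgfra, Acta2 stood at 50.4 CPM in 7 baseline cells and at 239 CPM in 10 AngII cells, and Tagln at 33.6 and 281 CPM. Subtracting a share of the library profile moved these values. The class difference of Tagln was -2.87 with 5% subtracted and 0.060 with 20%, in place of -1.56. At 20% the amount subtracted exceeded the whole fibroblast level of Tagln in both libraries, so that value holds the smooth muscle ratio alone. The median of the list was -0.62 with 5%, and -2.15 with 20%, when 5 of its genes were still compared. The share of free RNA in these droplets was not measured, and its part in the fibroblast levels was not tested. Regulators of this programme were split: 4 of 9 had a positive class difference, and values ran from -1.33 for Fhl2 to 0.92 for Klf9.

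Genes of cholesterol synthesis were higher on the smooth muscle side throughout. All 12 genes compared had a positive class difference, against 58.0% of all genes, and the median was 0.58. The median log2 ratio of the list was 1.13 in smooth muscle and 0.49 in fibroblasts, with 7 and 3 genes at 1 or higher. Of all genes, 2.63% and 3.72% had such a ratio. Fdps, which makes farnesyl diphosphate, stood at 93.7 and 445 CPM in smooth muscle and 73.7 and 223 CPM in fibroblasts (0.65), and shares exon sequence with a neighbour of the same strand. Sc5d, a desaturase of late cholesterol synthesis, stood at 13.1 and 41.3 CPM against 23.0 and 31.4 CPM (1.15). Msmo1, a sterol methyl oxidase, stood at 53.1 and 106 CPM against 54.3 and 54.3 CPM (0.98). Cyp51, a sterol demethylase, stood at 21.5 and 75.2 CPM against 27.1 and 55.2 CPM (0.76). The smallest class difference was 0.10 for Hmgcs1, an early enzyme of the pathway. Insig1, a sterol-sensing brake on the pathway, was lower under AngII in both classes, with log2 ratios of -0.37 in smooth muscle and -0.80 in fibroblasts. Under TMM scaling 13 genes of the list were compared and all 13 were positive.

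The promoters of cholesterol genes are shown because these genes shared the sign of their class difference. Each window runs from 250 bases before to 50 after the gene start in RefSeq (build GRCm38.p6), which held 8 of the 12 genes. Letters of the CCAAT box (CCAAT, or ATTGG on the other strand) and of the sterol regulatory element (TCACNCCAC on either strand) are in capitals. A CCAAT box was present in 8 of 8 windows, against 37.4% of 32851 promoters of the same length, and a sterol regulatory element in 1 of 8, against 1.24%. These matches are a description of the letters and not of binding. Sc5d (chr9:42264251-42264550, minus strand) and Msmo1 (chr8:64733529-64733828, minus strand) had the highest class differences of the list, and Hmgcs1 (chr13:119690101-119690400, plus strand) the lowest.
Sc5d: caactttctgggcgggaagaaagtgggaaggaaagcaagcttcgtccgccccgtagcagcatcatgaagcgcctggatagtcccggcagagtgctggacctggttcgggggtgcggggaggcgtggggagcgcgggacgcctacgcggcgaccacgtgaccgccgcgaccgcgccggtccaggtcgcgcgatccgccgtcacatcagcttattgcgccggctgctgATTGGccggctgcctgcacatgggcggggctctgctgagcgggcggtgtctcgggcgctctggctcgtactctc
Msmo1: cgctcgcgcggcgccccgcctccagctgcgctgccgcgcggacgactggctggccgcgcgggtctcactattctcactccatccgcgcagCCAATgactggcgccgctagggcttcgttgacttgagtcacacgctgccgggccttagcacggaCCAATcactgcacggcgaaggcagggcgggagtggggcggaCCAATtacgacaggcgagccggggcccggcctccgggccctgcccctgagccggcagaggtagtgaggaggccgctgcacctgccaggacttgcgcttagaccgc
Hmgcs1: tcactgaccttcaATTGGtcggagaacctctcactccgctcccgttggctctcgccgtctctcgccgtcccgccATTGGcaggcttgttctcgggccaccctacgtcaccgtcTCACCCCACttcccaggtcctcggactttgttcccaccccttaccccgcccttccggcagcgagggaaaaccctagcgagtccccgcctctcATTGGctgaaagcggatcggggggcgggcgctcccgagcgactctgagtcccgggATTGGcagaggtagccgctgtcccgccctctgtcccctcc
Sc5d had 1 match, Msmo1 3 and Hmgcs1 5, so the gene with the lowest class difference of these had the most.

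Collagens and their processing showed a divided picture. Of 12 fibrillar and associated collagens compared, 8 had a positive class difference, near the 58.0% of all genes, with a median of 0.38. For 3 of them it was 1 or higher and for 2 it was -1 or lower, against 2.06% and 1.21% of all genes. Besides Col15a1, the collagen VI chains Col6a3, Col6a1 and Col6a2 were on the smooth muscle side. Col6a1 stood at 183 and 233 CPM in smooth muscle and 597.5 and 379 CPM in fibroblasts. Col6a3 had a class difference of 1.29 and stood at 118 and 282 CPM in smooth muscle and 276 and 268 CPM in fibroblasts. On the fibroblast side, Col14a1 had -1.50 and Col8a1 had -1.24, the latter at 15.2 and 26.2 CPM in smooth muscle and 100.2 and 400.1 CPM in fibroblasts. The main collagen chains Col1a1 and Col1a2 had 0.45 and 0.31, and Col3a1, which shares exon sequence with a neighbour of the same strand, -0.54. Of 8 basement membrane genes, 6 had a positive class difference, against 58.0% of all genes, with a median of 0.29. The chains Col4a1 and Col4a2 were the other 2, and were higher under AngII in fibroblasts alone, with Col4a1 at 528 and 519 CPM in smooth muscle and 351.5 and 854 CPM in fibroblasts, and class differences of -1.30 and -1.34. Of 13 enzymes of collagen maturation, 4 had a positive class difference, against 58.0% of all genes. Their median ratios were near each other, at 0.65 in smooth muscle and 0.63 in fibroblasts. A ratio of 1 or higher was found for 6 in fibroblasts and 1 in smooth muscle, against 3.72% and 2.63% of all genes. Under TMM scaling it was found for 6 and 5. Of these enzymes Plod2, a lysyl hydroxylase, had the lowest class difference at -0.91. Bmp1, a procollagen protease, had the highest at 1.11.

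Elastic fibre genes and matrix enzymes were also divided. Lox, which cross-links elastin and collagen, stood at 192 and 379 CPM in smooth muscle and 274 and 1200 CPM in fibroblasts (-1.15). Eln itself was higher under AngII in both classes, at 2537 and 4364 CPM against 2706 and 3897 CPM (0.26). Fbln2, a fibulin, stood at 13.6 and 89.8 CPM in smooth muscle and 502 and 934 CPM in fibroblasts (1.75). Of 18 genes of elastic fibres, 11 had a positive class difference, which is near the share of 58.0% over all genes. Timp1, a metalloproteinase inhibitor, was far higher under AngII in both classes, at 24.5 and 290 CPM in smooth muscle and 199 and 3294 CPM in fibroblasts (-0.53). Beside Plat and Timp2, Ctsk and Mmp2 were on the smooth muscle side with 1.08 and 1.04, and Mmp2 stood at 542 and 226 CPM in fibroblasts against 34.7 and 29.7 CPM in smooth muscle. Plaur, the receptor of urokinase, had -0.54.

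**Figure D4:**
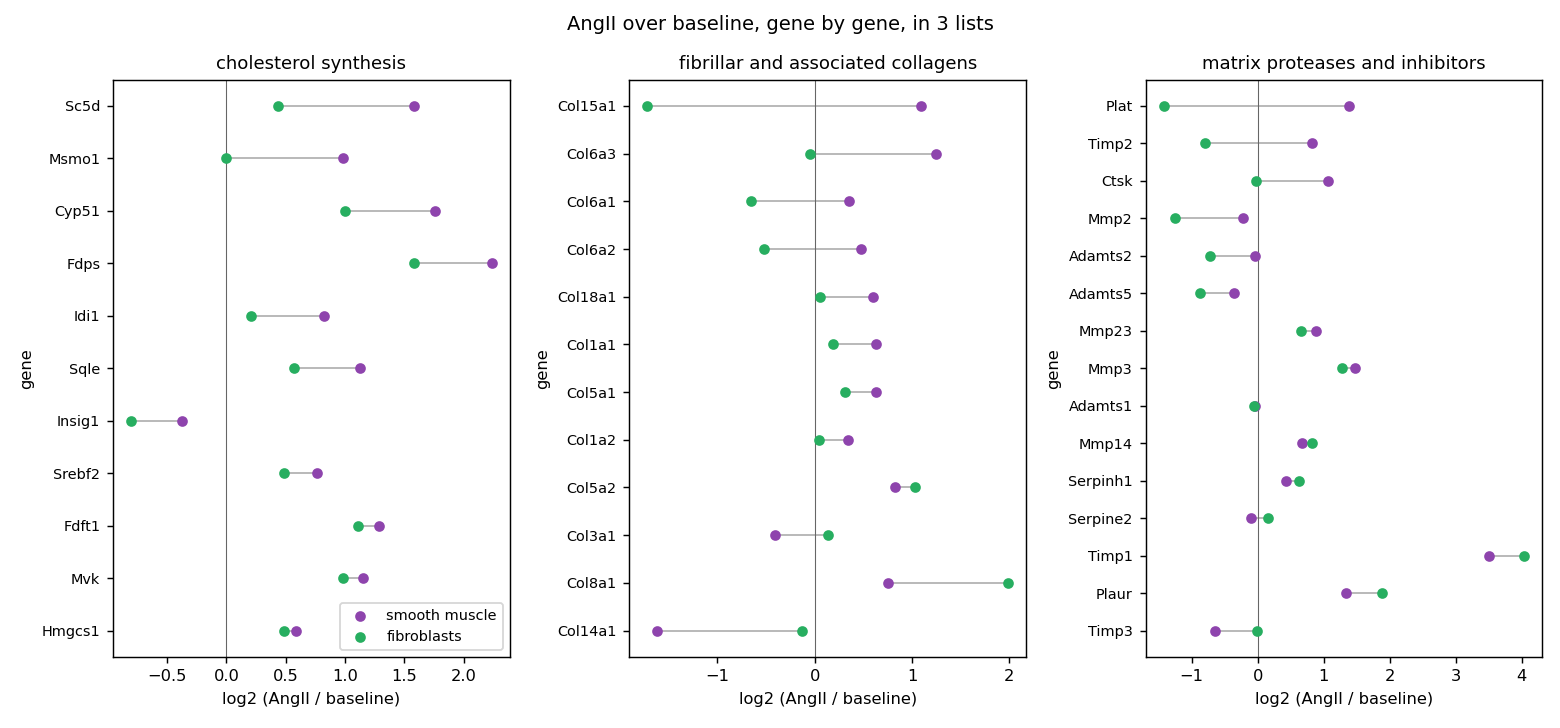
Log2 ratio of AngII over baseline (x axis) of each gene in smooth muscle and in fibroblasts, joined by a line, for the genes reported of cholesterol synthesis, collagens and matrix proteases with their inhibitors. The smooth muscle point lies to the right in each cholesterol gene plotted, whereas the order is mixed in the other 2 panels.

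Growth factor genes and early response genes are known to follow AngII receptor signalling. Of the TGF-beta family, Tgfb3 had log2 ratios of 0.28 in smooth muscle and -0.92 in fibroblasts, with 60.1 and 73.0 CPM in smooth muscle and 89.9 and 47.0 CPM in fibroblasts, and the class difference of Tgfb2 was 0.81. Their receptors Tgfbr2 and Tgfbr1 had 0.61 and 0.35, with lower levels under AngII in both classes. In all, 7 of 9 genes of this family had a positive class difference, against 58.0% of all genes. The 18 immediate early genes were close to equal, with medians of -0.91 in smooth muscle and -0.94 in fibroblasts and 10 of 18 above 0. Receptors of AngII were low: Agtr1a, the main vascular type 1 receptor, stood at 2.38 and 1.43 CPM in smooth muscle and 5.95 and 2.77 CPM in fibroblasts, under the level needed for comparison. Rgs5, a brake on receptor signalling, stood at 91.8 and 59.3 CPM in smooth muscle and 38.9 and 54.4 CPM in fibroblasts (-1.09).

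Most of the cell cycle genes compared were on the fibroblast side. Hmgb2, a chromatin protein of dividing cells, stood at 45.8 and 27.1 CPM in smooth muscle and 50.1 and 133 CPM in fibroblasts (-2.13), and the condensin gene Smc4 at 22.3 and 24.5 CPM against 23.2 and 81.2 CPM (-1.64). A UMI of the proliferation genes Mki67 or Top2a was found in 0.0489% of thinned smooth muscle cells at baseline and 1.19% under AngII, and in 0.502% and 13.7% of thinned fibroblasts. Without thinning these shares were 0.383% and 2.10%, and 0.705% and 18.8%. When cells with such a UMI were left out, the class difference was -0.86 for Hmgb2, -0.67 for Smc4 and -0.25 for Anln. Few cell cycle genes reached the level for comparison, with 5 of 20 in the S phase list and 6 of 20 in the G2 and M phase list. In each list 1 gene had a positive class difference, against 58.0% of all genes. With cells holding an Mki67 or Top2a UMI left out, the median class difference of the S phase list was 0.14, in place of -0.57. Over all 36 gene lists the median class difference ran from -0.77 for G2 and M phase to 0.58 for cholesterol synthesis.

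**Figure D5:**
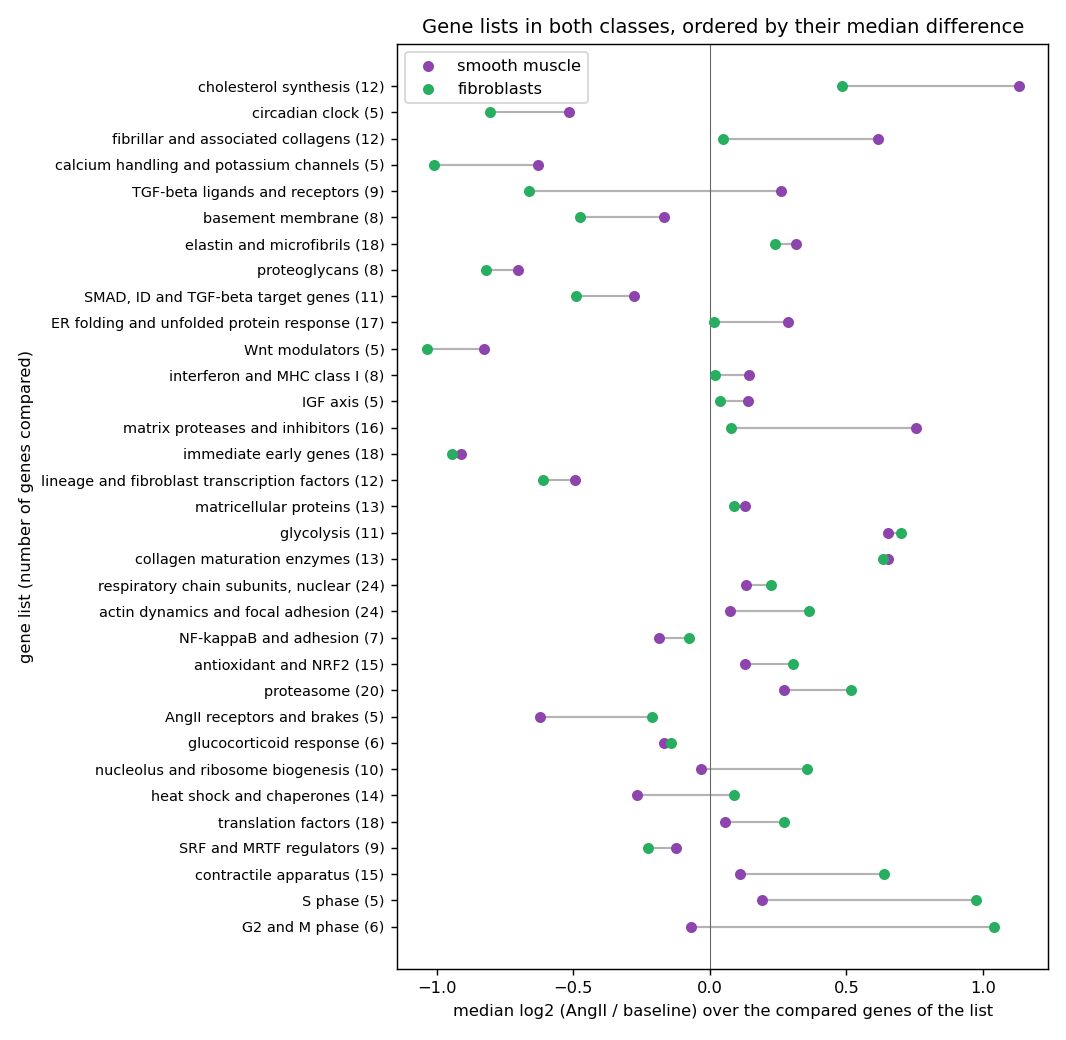
Median log2 ratio of AngII over baseline (x axis) in smooth muscle and in fibroblasts over the compared genes of each list with at least 5 such genes, ordered by the median class difference (y axis, number of genes compared in parentheses). Cholesterol synthesis is at the top with medians of 1.13 and 0.49, and the lists of the cell cycle and the contractile apparatus are at the bottom.

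The CNC AngII library gave the same quantity over the same SHF baseline, and since both comparisons share that baseline their values are only set side by side. The class difference was 3.99 in CNC against 4.04 in SHF for Spp1, 4.18 against 3.72 for Efhd1, 3.44 against 2.82 for Plat and 2.42 against 2.81 for Col15a1. It was -3.61 against -4.30 for Fabp4 and -3.88 against -3.03 for Ccn3. Serpinb6b had -2.87 against -1.66, and Sfrp2 -2.87 against -1.59. Tnnt2 stood at 52.2 CPM in CNC smooth muscle under AngII, against 466 CPM in SHF, and at 17.4 against 65.4 CPM in fibroblasts. CNC fibroblasts numbered 769 cells, so their counts are fewer than those of SHF.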

How the data were processed

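Cells of 2 SHF libraries were compared. The deposited files hold raw UMI counts per gene and barcode, which the authors did not normalise. The submitters' processing notes name fastp, STAR 2.5, HTSeq 0.6.1 and the build mm10 with no role, and the gene annotation is not given in the sources used here. The AngII and baseline files use different gene names. They were joined on 18108 common genes, 514 of them by a unique synonym, after 13 duplicated names were left out, and these genes held 99.8% and 99.5% of the UMIs of the 2 libraries. Barcodes were kept from 500 detected genes upwards and up to 10% mitochondrial UMIs, 8579 of 9412 at baseline and 9490 of 11166 under AngII, and gated as described above. The summed UMIs of the classes were 27323345 and 67926259 in smooth muscle and 30096965 and 40837750 in fibroblasts, baseline first. CPM is a gene's summed count in a class over the class total. Ratios are log2 of CPM plus 1, over genes with a mean of at least 20 CPM in each class. With 1 library per group, no p-value is given. Intervals are normal on the log scale where each of the sums had at least 100 UMIs and exact conditional otherwise, and exact binomial for shares, at 95%, and cover counting error only. Doublet calls by Scrublet in scanpy 1.11.5 marked 211 cells (2.33%) at baseline and 190 (1.94%) under AngII and were kept, and left out as an alternative.

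Genes named were detected in 10% or more of a class in 1 library and are the 12 highest and 12 lowest class differences, the 5 genes of each opposed kind with the largest smaller ratio, and the 5 highest and 5 lowest among genes within 4-fold between classes. Mitochondrial, ribosomal protein and gate genes were left out of the naming. Genes of 36 lists may also be named. Some genes that these rules select are not reported here, though they count in the totals. Members and lists were chosen with earlier results of these data known. The computation was tested on simulated data. Python 3.11.15, numpy 2.4.6, scipy 1.17.1, R 4.3.3 and edgeR 4.0.16 (for TMM factors alone) were used.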

Additional observations from a re-analysis of the deposited data

Results flagged for a closer look

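For the genes named here the ratio of AngII over baseline had opposite signs in the 2 classes, which is the reason each is given; none of these differences was tested, since each class and condition is 1 library. Plat had a class difference of 2.82, Col15a1 2.81, Htra1 2.31, Cystm1 1.93 and Timp2 1.63, with the ratio above 0 in smooth muscle and below 0 in fibroblasts. Emb had -2.88, Hmgb2 -2.13, Serpinb9 -1.76, Il1r1 -1.54, Tnnt2 -1.41 and Grb14 -1.37, with the ratio below 0 in smooth muscle and above 0 in fibroblasts. The depth per fibroblast was 9169 UMIs at baseline and 15510 under AngII. Alternative settings included cells thinned to equal depth before gating and cells with 8000 to 16000 UMIs. Each of these genes kept its sign in all 21 alternatives, and all but Hmgb2 stayed beyond 1 in size. Plat was lowest at 2.34 and Timp2 at 1.17 with thinned cells. Over cells with 8000 to 16000 UMIs, Col15a1 was lowest at 2.33, Htra1 at 1.95 and Cystm1 at 1.39. Hmgb2 was -0.86 with cells holding an Mki67 or Top2a UMI left out. How much of each difference came from depth was not tested.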

How the results depend on the processing

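The count of genes at 1 or higher was 90 and that at -1 or lower 53. With a mean CPM of at least 5 they were 208 and 115, with at least 100 they were 21 and 14, and with 20% of the library profile subtracted they were 195 and 81. With cells limited to 1000 genes or more and 5% mitochondrial UMIs or fewer, they were 95 and 140, so the lower side was then the larger. At that setting 119 baseline smooth muscle cells were left. The median absolute class difference of 0.22 lay between 0.19 and 0.28 over all 21 alternatives. Of 627 values of named genes under the alternatives, 386 shifted from the main value by no more than the counting error of the gene. That error is the distance from the middle of its counting interval to an end. Another 239 shifted by more and 2 reversed. Tagln was 0.060 with 20% of the library profile subtracted, where nothing was left of its fibroblast level in either library. Spp1 was -0.30 over cells with 8000 to 16000 UMIs, where its baseline smooth muscle level of 0.265 CPM lay below the 1 CPM added. Neither value is thus a measured reversal. The cause of the other shifts was not tested. Of 753 list medians, 536 shifted by no more than a counting error taken from the median interval ends of the list's genes. Some list medians changed sign. Under the stricter cell filter that of basement membrane genes was -0.20 in place of 0.29, and that of elastic fibre genes -0.18 in place of 0.27. The cholesterol list lay between 0.27 and 0.79, and the contractile list between -2.15 and -0.40. Serpinb6b was -0.51 under the stricter cell filter, Sfrp2 -0.79 and Rnd1 -0.93 over cells with 8000 to 16000 UMIs, and Wif1 0.99 when cells were thinned before gating. The settings on library profile subtraction at 20%, depth range, exon overlap and the Pecam1 condition were chosen after seeing the data. No paired analysis was possible because each group is 1 library and the labels give no replicate numbers.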

Other observations

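Most genes of the protein and energy machinery compared had a lower ratio in smooth muscle than in fibroblasts. None of 20 proteasome subunits had a positive class difference, with a median of -0.19 and median log2 ratios of 0.27 in smooth muscle and 0.52 in fibroblasts. Of 24 nuclear respiratory chain subunits 3 were above 0 (median -0.13), of 18 translation factors 2 (median -0.32) and of 10 nucleolar genes 1 (median -0.23), against 58.0% of all genes. The nucleolar median in smooth muscle was -0.03, and 0.18 under TMM scaling. Fibroblasts under AngII also had deeper cells. When cells were thinned to equal depth before gating, the median class difference was -0.0008 for the nucleolar genes, -0.23 for translation factors, -0.16 for the proteasome and -0.14 for the respiratory chain.

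Chaperones and clock genes held single genes apart. Hsph1, a heat shock protein, stood at 64.5 and 99.6 CPM in smooth muscle and 59.2 and 38.4 CPM in fibroblasts, baseline first (class difference 1.23), and the small heat shock protein Hspb1 at 3267 and 2352 CPM against 427 and 655 CPM (-1.09). Dbp, a transcription factor of the circadian clock, stood at 8.45 and 50.8 CPM in smooth muscle and 15.2 and 27.3 CPM in fibroblasts (1.64). The labels do not give the time of day at which tissue was taken. Ogn, a small proteoglycan, stood at 726 and 165 CPM in smooth muscle and 975 and 530 CPM in fibroblasts (-1.25).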
